A study of Mus musculus with 26 samples.

Results

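The genes described here are a list of 35 mouse genes of the motile cilium, read from lung RNA of mice given multiwalled carbon nanotubes. Members were chosen by name: a gene entered if a probe's accession on the array belonged to it, and 33 of the 35 had such a probe. The RNA came from 25 animals in 5 groups of 5, and 31 members passed the filter on dim probes and were tested among 22950 features, 14838 of which carried a gene symbol. Dnah9, an outer arm dynein heavy chain, was well above background in 1 animal, and Spag6, a central apparatus protein, in 0, so neither was tested. Ccdc40, the partner of Ccdc39 in the axoneme's repeat ruler, and Lrrc23, a radial spoke protein, had no probe by accession.

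Motile cilia cover the multiciliated cells of the airway and beat to carry mucus out of the lung. Each holds a ring of microtubule doublets around a central pair, and dynein arms on the doublets bend it, paced by radial spokes and the central apparatus. The transcription factor Foxj1 switches on most of these genes in multiciliated cells, together with Rfx factors, which bind the X-box motif near ciliary promoters. The same genes are active in sperm, ependyma and oviduct, and in lung they mark ciliated cells of the conducting airways.

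All animals were of the transgenic MutaTMMouse strain, which carries a bacterial reporter gene for counting mutations, and were about 12 weeks old. The 4 exposed groups received 1 instillation into the trachea a week for 4 weeks of nanotubes in mouse serum, and lungs were collected 56 days later. These groups were NM 401 high (128 µg per mouse), NM 401 low (42.7 µg), Mitsui XNRi-7 high (128 µg) and Mitsui XNRi-7 low (42.7 µg), called Mitsui high and low below. The controls are vehicle controls in the study design, whereas the treatment protocol has them gavaged with olive oil, so what they received is not settled. The labels also differ over sex, female for each sample and male in the design, and it is not stated if the dose was given at each instillation or over all of them. RNA was taken from random sections of whole lung, so fewer ciliated cells and less RNA per ciliated cell cannot be told apart.

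Each array held 1 animal's RNA in Cy5 against universal mouse reference RNA in Cy3, and the level of a gene is its log2 Cy5/Cy3 ratio after normalisation. One Mitsui low animal was run on a second array, giving 26 arrays on 4 slides, and its arrays were averaged. By array, 45.7% to 62.1% of Cy5 signals passed the scanner's test against background. The lung markers Sftpc, Ager and Scgb1a1 were well above background in 25 of 25 animals. Foxj1, the defining marker of the list, was as well, and so were 29 of the 31 tested members. The dim side is the reference: its Cy3 signal was well above background on all animals' arrays for 17 of the 31. For Dnah5, Ak7, Spag16, Spag17, Ccdc39 and Lrriq1 it was so in at most 1 animal, so their ratios rest on a reference near background.

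The promoters of the members are shown first, because several carry the core of the X-box, the motif of the Rfx factors on the list. RefSeq promoter windows (build GRCm38.p6, 250 bases before to 50 after a start site of the gene) were at hand for 30 of the 35 members, 4 of them with several windows; Stk33, Rsph4a, Foxj1, Tppp3 and Rsph1 had no entry. These start sites are not always the outermost 5′ end of the gene: for 15 of the 30 members each lies over 50 bases inside it, 2124 for Ak7 and 48912 for Dnah5. The letters GTTNCCAT, searched on both strands, stood in the windows of 8 of the 30 members (26.7%), against 1384 of all 27025 genes (5.12%). The first base of the match lay between 88 and 5 bases before the window's start site, within 50 bases of it in 6 of the 8. Each stretch below is 30 bases on the strand that holds the match, 5′ to 3′, with the motif in capitals. A match is a description of these letters and not a bound site.
Dnah5, chr15:28203688-28203717, minus strand: agggtaatactGTTTCCATgctgtgccgtt
Spag17, chr3:99885318-99885347, minus strand: accgcttccccGTTTCCATagtagcagagt
Dnali1, chr4:125065647-125065676, minus strand: ggagaggagggGTTTCCATggtgatcgcaa
Tekt1, chr11:72361879-72361908, minus strand: gcgtccgtccgGTTGCCATagagaccgcag
Iqcg, chr16:33056187-33056216, minus strand: ttgcgcgacgcGTTGCCATagctaccgatt
Lrriq1, chr10:103236323-103236352, minus strand: gcagattggctGTTGCCATggctacggttt
Lrrc23, chr6:124779748-124779777, minus strand: gtcccgcccctGTTGCCATaacaacaataa
Hydin, chr8:110266961-110266990, minus strand: gagtccatcttGTTACCATctgttgccaca

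The forkhead letters TGTTTAC, of the kind that Foxj1 and its relatives bind, stood in 1 of the 30 member windows (3.33%), against 1095 of 27025 genes (4.05%). The match was in the window of Ak7, the adenylate kinase of motile cilia, and overlapped no X-box core. It is shown because it is the only forkhead match on the list.
Ak7, chr12:105705840-105705868, plus strand: agtagagaaatTGTTTACccaagcagagc

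Of the 8 members with an X-box core, Dnah5 alone passed the test in an exposed group, and Lrrc23 was not measured. Its whole window (chr15:28203516-28203815, plus strand, the gene's own) is given with the core in capitals, read here from its other strand.
Dnah5: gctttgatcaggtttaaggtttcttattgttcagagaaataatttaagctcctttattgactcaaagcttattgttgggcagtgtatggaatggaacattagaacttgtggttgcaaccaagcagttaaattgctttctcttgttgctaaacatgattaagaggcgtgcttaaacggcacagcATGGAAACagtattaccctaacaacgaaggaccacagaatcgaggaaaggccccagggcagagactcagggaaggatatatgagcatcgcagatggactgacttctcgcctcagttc

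The first comparison asks how the members stood in exposed lungs against control lungs. In Mitsui high lungs 8 members rose, namely Foxj1, Dnah5, Dnah6, Dnaic2, Rsph1, Rsph4a, Ccdc39 and Ropn1l, and Tppp3 fell. In Mitsui low lungs 7 rose, namely Foxj1, Rfx2, Dnaic2, Dynlrb2, Rsph1, Mns1 and Ropn1l, and 0 fell. In NM 401 high lungs 0 rose and 3 fell, namely Tekt2, Tppp3 and Sec14l3. With NM 401 low 0 members passed the test in either direction, although 8 had an unadjusted p under 0.05. The share of all features under that unadjusted threshold was not counted, here or in the later comparisons. All calls are limma's adjusted p under 0.05, with Benjamini-Hochberg adjustment over all 22950 features. They rest on the loess normalisation: with each array centred on its median instead, 0 members passed in any exposure. With the ratios of the scanner software, Feature Extraction, the calls of Foxj1 and Dnaic2 were lost in both Mitsui groups, and so were those of Dnah6, Rsph4a, Ccdc39 and Tppp3 in Mitsui high, Dynlrb2 in Mitsui low and Sec14l3 in NM 401 high.

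These counts stand beside a broad response of the lung. In NM 401 high lungs 18.4% of all features were higher and 16.4% lower, against 0% and 9.68% of the members. For NM 401 low, 8.95% of features were higher and 7.98% lower. Among Mitsui high lungs 12.7% of features were higher and 11.1% lower, against 25.8% and 3.23% of the members. In Mitsui low lungs 10.6% were higher and 10.4% lower, against 22.6% and 0% of the members. The median log2 change over the 31 members was 0.04 in NM 401 high lungs, 0.20 in NM 401 low, 0.33 in Mitsui high and 0.34 in Mitsui low, where the median over all features was 0.00 in each. A member's change was above 0 in 19 of 31 for NM 401 high and in 29 of 31 for each of the other 3 exposures. Over all features the share above 0 was 49.1% in NM 401 high, 48.8% in NM 401 low, 49.7% in Mitsui high and 49.1% in Mitsui low. The members varied together between animals, as given below, so their signs are not independent. The 4 comparisons share the same 5 control animals.

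**Figure D1:**
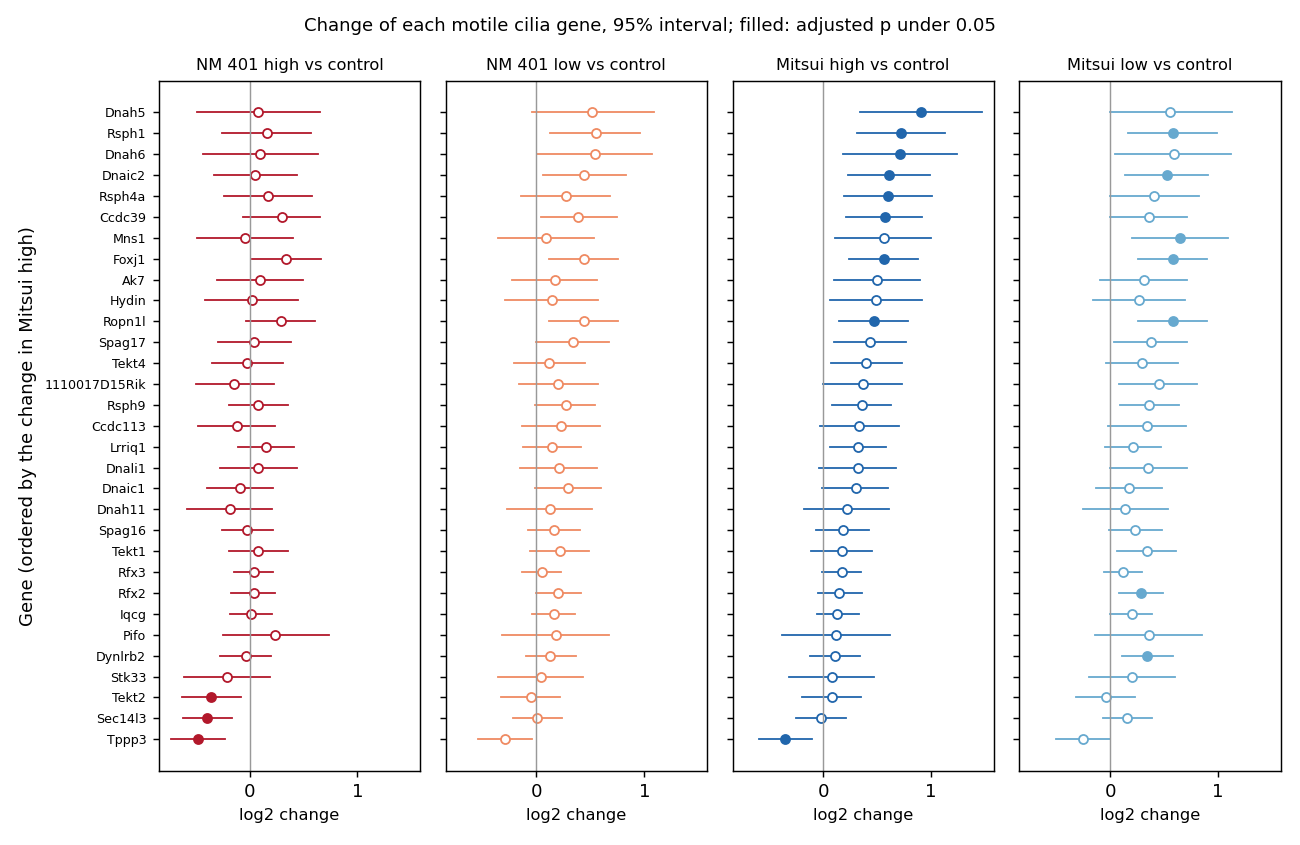
Log2 change of each of the 31 tested members against control in the 4 exposed groups (x axis, log2 units; points with 95% intervals, n = 5 animals per group; filled points have an adjusted p under 0.05). The points of Mitsui high run from -0.35 for Tppp3 to 0.91 for Dnah5, and those of NM 401 high from -0.48 for Tppp3 to 0.34 for Foxj1.

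With slide as a block the members called numbered 3 of the 31 in NM 401 high (41% of all features were called), 2 in NM 401 low (22.6%), 12 in Mitsui high (29.8%) and 7 in Mitsui low (26.3%). The 2 in NM 401 low were Foxj1 and Ropn1l. Within single slides, where a group holds 1 or 2 animals, the member median against control was -0.51, 0.31 and -0.26 in NM 401 high on slides 1, 2 and 4. It was -0.16, 0.39, 0.62 and -0.30 in NM 401 low on slides 1 to 4. For Mitsui high the same values were 0.27, 0.45, 0.58 and 0.08, and for Mitsui low 0.52, 0.63 and 0.04 on slides 2, 3 and 4. The NM 401 medians thus changed sign between slides, and the Mitsui medians stayed above 0. The NM 401 medians were below 0 on slides 1 and 4, whose only controls were animals 4 and 3.

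The controls themselves fell apart on these genes. The median difference of the members from the control mean was -0.20, -0.28, 0.25, 0.41 and -0.17 in control animals 1 to 5. Controls 3 and 4 were high and controls 1, 2 and 5 low. This split ran with the slides. Control 4 was the only control on slide 1 and control 3 the only one on slide 4. Controls 1 and 5 lay on slide 2 and control 2 on slide 3. The part of slide in the split was not tested. In Mitsui high lungs the values were 0.26, 0.71, 0.24, 0.22 and 0.22, and in Mitsui low lungs 0.16, 0.34, 0.52, 0.28 and 0.31. All 10 Mitsui animals were above the control mean, and 8 of the 10 lay within the control range. The values were 0.20, 0.44, 0.23, 0.21 and -0.06 in NM 401 low lungs, and in NM 401 high lungs they were -0.01, 0.47, -0.23, 0.06 and -0.19. NM 401 high animal 2 stood above the other animals of its group.

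**Figure D2:**
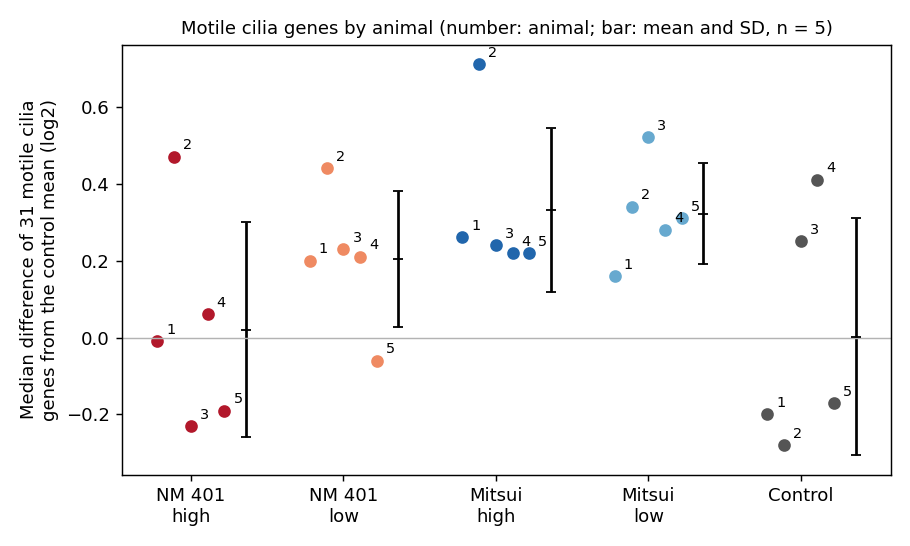
Median difference of the 31 members from the control mean in each animal (y axis, log2 units; points are animals with their number, bars the group mean and SD, n = 5). Mitsui high and low animals lie between 0.16 and 0.71, and the controls between -0.28 and 0.41.

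The counts moved with single control animals. Without control 4, the highest control, 17 members passed the test in Mitsui high lungs, 13 in Mitsui low and 6 in NM 401 low, where 21.2%, 18.3% and 13.9% of all features were called. Without control 1, 2 or 5 the count fell to 4, 5 and 3 in Mitsui high, with 21.2%, 21.6% and 20.8% of features called, and to 2 in each case in Mitsui low, with 18.6%, 18.6% and 18.3%. Left out in turn, Mitsui high animal 2 took the Mitsui high count to 5 (23.8% of features), and Mitsui low animals 2, 3, 4 and 5 took the Mitsui low count to 3, 2, 4 and 4 (17.5% to 18.2%). For NM 401 low, leaving out control 2 or 3, NM 401 high animal 1 or NM 401 low animal 4 gave 1 call each, with 15% to 17.2% of features called. Leaving out NM 401 low animal 5, Mitsui high animal 2 or NM 401 high animal 2 gave 2, 3 and 4, with 13.6%, 17.4% and 17.4%.

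A difference of similar size was seen between the arrays of the animal that was run on both, which lay on slides 4 and 1. Its second array read higher than its first for 27 of 31 members, with a median difference of 0.30, against 58.8% of all features and a median of 0.05. Foxj1 read 3.71 and 3.84 on its first and second arrays, and Ak7 1.41 and 2.13. This difference between arrays of 1 animal was close to the group medians of the Mitsui exposures, and its part in the group results was not tested. With the first array alone Dynlrb2 and Rsph1 lost their calls in Mitsui low, and with the second alone no call changed among the members called.

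Among the regulators, Foxj1 was higher in both Mitsui groups. It read 3.56, 4.11, 3.73, 3.64 and 3.46 in Mitsui high lungs and 3.57, 3.75, 3.76, 3.76 and 3.78 in Mitsui low lungs, against 2.72, 2.82, 3.53, 3.64 and 3.00 in control lungs. All Mitsui animals lay above the control mean of 3.14 ± 0.42 (SD, n = 5), and the groups overlapped through controls 3 and 4. The log2 change was 0.56 (SE 0.15, 1.47-fold, limma adjusted p = 0.0101) in Mitsui high and 0.58 (SE 0.15, limma adjusted p = 0.00869) in Mitsui low. It kept its call without any single animal in both groups, and with the Feature Extraction ratios its changes were 0.23 and 0.35 and not called. In NM 401 low lungs Foxj1 read 3.62, 3.86, 3.66, 3.36 and 3.43, and in NM 401 high lungs 3.31, 3.85, 3.30, 3.48 and 3.45. These were all above the control mean too, with log2 changes of 0.44 (limma adjusted p = 0.0508) and 0.34 (limma adjusted p = 0.0977) that missed the threshold. The change in NM 401 low passed with slide or replicate as a block, with the authors' deposited values, without background subtraction, with the stricter filter on dim probes and in 5 of the 25 fits without 1 animal, and that in NM 401 high in 2 of them.

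Rfx2 and Rfx3 are transcription factors that bind the X-box and act with Foxj1. Rfx2 read 0.47, 0.51, 0.68, 0.29 and 0.44 in Mitsui low lungs, against 0.17, -0.01, 0.22, 0.54 and 0.06 in control lungs. That was a change of 0.29 (SE 0.10, limma adjusted p = 0.0435), with overlap through control 4. The call was lost without a filter on dim probes, with the replicate block and in 10 of the 25 fits without 1 animal, and the Feature Extraction ratios gave 0.63. Rfx2 read 0.44, 0.36, 0.06, 0.23 and 0.07 in NM 401 high lungs, 0.39, 0.53, 0.32, 0.48 and 0.26 in NM 401 low lungs, and 0.13, 0.52, 0.35, 0.44 and 0.31 in Mitsui high lungs. These exposures gave Rfx2 changes of 0.04 in NM 401 high, 0.20 in NM 401 low and 0.15 in Mitsui high, none past the threshold. Rfx3 read -0.07, 0.13, -0.15, -0.31 and -0.12 in NM 401 high lungs, -0.16, -0.02, -0.06, 0.01 and -0.24 in NM 401 low lungs, -0.13, 0.28, 0.08, -0.19 and 0.10 in Mitsui high lungs, and -0.12, 0.08, 0.15, -0.19 and -0.05 in Mitsui low lungs. In control lungs it read -0.20, -0.14, -0.06, -0.11 and -0.21 and overlapped each exposed group. Its changes of 0.04, 0.05, 0.17 and 0.12 in NM 401 high, NM 401 low, Mitsui high and Mitsui low did not pass.

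Dynein arms are the motors of the axoneme. Dnah5, the outer arm heavy chain most often mutated in human primary ciliary dyskinesia, read 4.81, 5.22, 4.73, 4.79 and 4.48 in Mitsui high lungs. It read 3.41, 3.66, 4.48, 4.52 and 3.41 in control lungs, where animals 3 and 4 reached the lowest Mitsui high value. Its change of 0.91 (SE 0.27, 1.88-fold, limma adjusted p = 0.0177) was the highest of any member in that comparison. Its call was lost without control 1 or control 5. Its changes of 0.08 in NM 401 high, 0.52 in NM 401 low and 0.56 in Mitsui low were not called.

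Dnah6, an inner arm heavy chain, read 5.70, 6.37, 6.02, 5.76 and 5.40 in Mitsui high lungs, against 4.74, 4.87, 5.65, 5.71 and 4.73 in control lungs. Its change was 0.71 (SE 0.26, limma adjusted p = 0.0471), close to the threshold, and its call was lost in 16 of the 25 fits that left out 1 animal and with slide as a block (adjusted p = 0.0643), and with the Feature Extraction ratios its change was 0.05. Dnaic2, an outer arm intermediate chain, read 2.87, 3.13, 3.00, 2.84 and 2.79 in Mitsui high lungs and 2.44, 3.12, 2.92, 2.94 and 2.79 in Mitsui low lungs, against 2.18, 1.85, 2.62, 2.86 and 2.07 in control lungs. Both Mitsui groups were above the control mean in 5 of 5 animals. The changes of Dnaic2 were 0.61 (SE 0.19, limma adjusted p = 0.0177) in Mitsui high and 0.53 (SE 0.19, limma adjusted p = 0.0447) in Mitsui low. The call in Mitsui high was lost without control 2 or 5. The one in Mitsui low was lost in 11 of the 25 fits without 1 animal and without a filter on dim probes.

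Dynlrb2, a roadblock light chain, read 5.70, 5.62, 5.87, 5.45 and 5.50 in Mitsui low lungs, against 5.22, 5.08, 5.19, 5.69 and 5.24 in control lungs. All Mitsui low animals lay above controls 1, 2, 3 and 5, and control 4 lay among them. The change was 0.34 (SE 0.11, limma adjusted p = 0.0319), and its call was lost in 7 of the 25 fits without 1 animal and with eBayes set to trend and robust. The other tested dynein chains, Dnah11, Dnaic1 and Dnali1, did not pass in any exposure. Their changes ran from -0.18 for Dnah11 in NM 401 high to 0.35 for Dnali1 in Mitsui low.

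Radial spokes link the doublets to the central pair, and Rsph1, Rsph4a and Rsph9 form their heads. Rsph1 read 2.73, 3.30, 2.76, 2.57 and 2.58 in Mitsui high lungs, against 1.85, 1.87, 2.35, 2.51 and 1.79 in control lungs. It was the only called member with no overlap between Mitsui high and control animals. The change was 0.72 (SE 0.20, 1.65-fold, limma adjusted p = 0.0102), and it passed without any single animal. In Mitsui low lungs Rsph1 read 2.42, 2.58, 3.08, 2.58 and 2.59, a change of 0.58 (SE 0.20, limma adjusted p = 0.0408), which missed the threshold with slide as a block (adjusted p = 0.0545), in 7 of the 25 fits without 1 animal, without a filter on dim probes and as the mean of its probes. A second kept probe of Rsph1 gave smaller differences of 0.50 in Mitsui high and 0.32 in Mitsui low.

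Rsph4a read 3.22, 3.58, 2.64, 2.93 and 2.60 in Mitsui high lungs, against 2.15, 2.10, 2.75, 2.84 and 2.13 in control lungs. The change was 0.60 (SE 0.20, limma adjusted p = 0.0299), its second probe gave 0.36, and the call was lost as the mean of both probes and in 5 of the 25 fits without 1 animal. Rsph9 changed by 0.36 in each Mitsui group and by 0.08 and 0.27 in NM 401 high and low, none of them called. Ropn1l, a protein of sperm flagella and motile cilia, read 0.27, 0.66, 0.32, 0.07 and 0.26 in Mitsui high lungs and 0.37, 0.34, 0.55, 0.41 and 0.44 in Mitsui low lungs. In control lungs it read -0.39, -0.51, -0.03, 0.50 and -0.33, so that all but control 4 lay below every Mitsui animal. Its changes were 0.47 (SE 0.15, limma adjusted p = 0.0289) in Mitsui high and 0.58 (SE 0.15, limma adjusted p = 0.00898) in Mitsui low, and its second probe gave 0.47 and 0.55. The call in Mitsui high was lost in 4 of the 25 fits without 1 animal, those without control 1, 2 or 5 or Mitsui high animal 2.

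**Figure D3:**
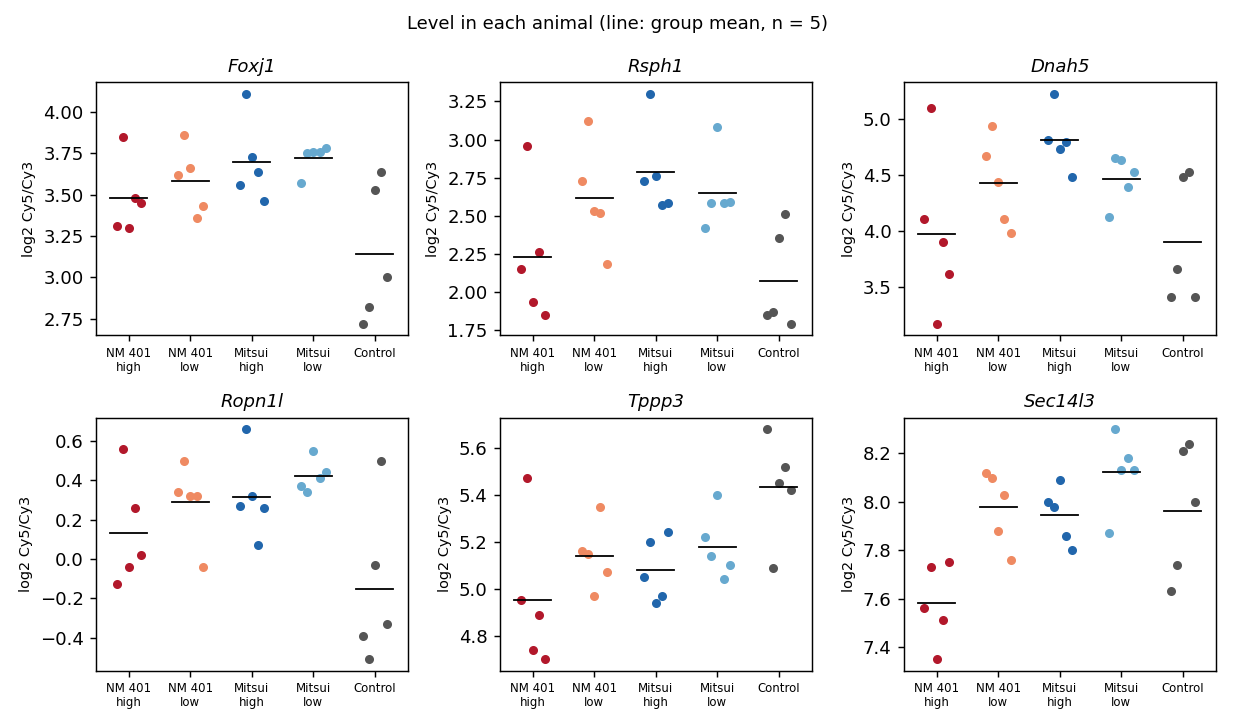
Log2 Cy5/Cy3 ratio of Foxj1, Rsph1, Dnah5, Ropn1l, Tppp3 and Sec14l3 in each animal (y axis; lines are group means, n = 5). Foxj1, Rsph1, Dnah5 and Ropn1l have control animals 3 and 4 above the other controls, and Sec14l3 has all NM 401 high animals at 7.75 or lower.

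The doublets carry further proteins that set their repeat and line their lumen. Ccdc39, part of the ruler that places inner arms and spokes, read 1.53, 2.47, 1.65, 1.56 and 1.86 in Mitsui high lungs, against 1.03, 1.08, 1.45, 1.64 and 1.04 in control lungs. Its change of 0.57 (SE 0.17, limma adjusted p = 0.0178) was lost without Mitsui high animal 2. Mns1, an inner protein of the doublet, read 0.01, 0.30, 0.76, 0.76 and 0.69 in Mitsui low lungs, against -0.29, -0.57, 0.10, 0.36 and -0.31 in control lungs. That change was 0.65 (SE 0.22, limma adjusted p = 0.034), and in Mitsui high lungs Mns1 changed by 0.56 (limma adjusted p = 0.0638), with animal 2 at 1.21. The call in Mitsui low was lost in 6 of the 25 fits without 1 animal.

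Tekt1, Tekt2 and Tekt4 are tektins, filament proteins inside the doublet. Tekt2 was lower in NM 401 high lungs, with 0.70, 0.86, 0.54, 1.01 and 0.78, against 0.68, 0.92, 1.52, 1.49 and 1.05 in control lungs. All 5 NM 401 high animals were below the control mean, and the groups overlapped. The change was -0.36 (SE 0.13, limma adjusted p = 0.0407), and its call was lost without control 3 or control 4, or without NM 401 high animal 1, 3 or 5, and without a filter on dim probes, and the Feature Extraction ratios gave -0.80. Tekt1 and Tekt4 changed by 0.08 and -0.02 in the same comparison and were not called.

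Tppp3, a tubulin polymerisation promoting protein abundant in ciliated cells, was called lower in NM 401 high and Mitsui high lungs. It read 4.95, 5.47, 4.74, 4.89 and 4.70 in NM 401 high lungs and 5.05, 5.20, 4.94, 4.97 and 5.24 in Mitsui high lungs, against 5.68, 5.09, 5.45, 5.52 and 5.42 in control lungs. The changes were -0.48 (SE 0.12, 0.717-fold, limma adjusted p = 0.00308) and -0.35 (SE 0.12, 0.785-fold, limma adjusted p = 0.0382). In NM 401 low lungs it read 5.16, 5.15, 4.97, 5.35 and 5.07, a change of -0.29 (limma adjusted p = 0.103). In Mitsui low lungs it read 5.22, 5.14, 5.40, 5.04 and 5.10, a change of -0.25 (limma adjusted p = 0.156). The level of Tppp3 in control 2 lay among the exposed animals, so no exposed group stood clear of the controls. The call in Mitsui high was also lost with the authors' deposited values, without a filter on dim probes, with the replicate block, with eBayes set to trend and robust and in 7 of the 25 fits without 1 animal.

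Sec14l3 encodes a lipid-binding SEC14-like protein of airway ciliated cells. It read 7.56, 7.73, 7.35, 7.51 and 7.75 in NM 401 high lungs, against 7.63, 7.74, 8.21, 8.24 and 8.0 in control lungs. All 5 were below the control mean of 7.96, with overlap through controls 1 and 2. The change was -0.39 (SE 0.11, limma adjusted p = 0.00861), and a second probe gave -0.49. In NM 401 low lungs it read 8.12, 8.10, 7.88, 8.03 and 7.76, and its changes in NM 401 low, Mitsui high and Mitsui low were 0.01, -0.02 and 0.16.

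The remaining members passed in no exposure. Among the central apparatus proteins, Hydin, Spag16 and Spag17 changed by 0.49, 0.18 and 0.43 in Mitsui high lungs and by 0.02, -0.02 and 0.04 in NM 401 high lungs. Ak7, Ccdc113, Pifo, Stk33, Lrriq1, Iqcg and 1110017D15Rik ran from -0.21 for Stk33 in NM 401 high to 0.50 for Ak7 in Mitsui high. Hydin's second kept probe gave 0.21 in Mitsui high, less than the 0.49 of the probe used. Both 1110017D15Rik (41505005 to 41517366, GRCm38.p6) and Dnaic1 (41569647 to 41638158) lie on chromosome 4, and their changes in Mitsui high lungs were 0.37 and 0.30. Genes between them were not examined.

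The next comparisons set the doses and the materials against each other. Between NM 401 high and NM 401 low lungs 1 member passed, against 3.78% of all features: Sec14l3 was lower at the high dose in 5 of 5 animals, with no overlap, by -0.40 (SE 0.11, limma adjusted p = 0.0443). That call was lost in 13 of the 25 fits without 1 animal, without a filter on dim probes, with the Feature Extraction ratios (-0.13), with the replicate block and with eBayes set to trend and robust, and the change was 0.03 under median centring. The member median was -0.17, and 29 of 31 members were lower at the high dose, where 50.4% of all features were higher. Members that vary together do not give independent signs. Without NM 401 high animal 2, 2 members passed, with 5.36% of all features called. Between Mitsui high and Mitsui low lungs 0 members passed and 0 had an unadjusted p under 0.05, and the median was -0.01, with 0% of all features called.

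Between NM 401 high and Mitsui high lungs 0 members passed the test, against 0.789% of all features. An unadjusted p under 0.05 was seen for 16 of the 31. The members vary together and the share of all features at that unadjusted threshold was not counted, so no result is read from it. The median change was -0.37, and 30 of 31 members were lower in NM 401 high lungs, where 50.4% of all features were higher. The member with the lowest limma adjusted p was Sec14l3, at -0.37 (adjusted p = 0.0929). Tekt2 was -0.44 (limma adjusted p = 0.0973, and 0.043 with slide as a block), and Dnah5 -0.83 with a 95% interval of -1.39 to -0.26 (limma adjusted p = 0.124). Without NM 401 high animal 2, whose members were high, 7 members passed, with 4% of all features called. Within slides 1, 2 and 4 the median was -0.74, -0.10 and -0.33.

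Between NM 401 low and Mitsui low lungs 0 members passed (0% of features), 1 had an unadjusted p under 0.05, and the median was -0.10. The material by dose interaction, which is the dose difference of NM 401 minus that of Mitsui, called 0 members, against 0.0349% of features. Its median over the members was -0.23, with 2 unadjusted p under 0.05. The lowest interaction values by p were those of Dnaic1 at -0.50 (limma adjusted p = 0.308) and Tekt2 at -0.42 (limma adjusted p = 0.345). That more members were called against control in Mitsui than in NM 401 lungs is therefore not shown to be a difference between materials.

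The members varied together from animal to animal within groups. After each group's mean was taken off, the Pearson correlation between members over the 25 animals had a median of 0.69 over 465 pairs, from -0.13 to 0.93, and was positive in 99.8% of pairs. Over all pairs of the 22876 features with no missing value the median was 0.01, and 4.34% of pairs exceeded 0.5, against 86% of member pairs. The points share arrays, reference RNA and slides, and with slide as a block the member median was 0.78. Slide was called for 1 of the 31 members, Iqcg, against 6666 of all features. The residual SD of the members had a median of 0.27 (0.14 to 0.47), against 0.15 over all features.

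**Figure D4:**
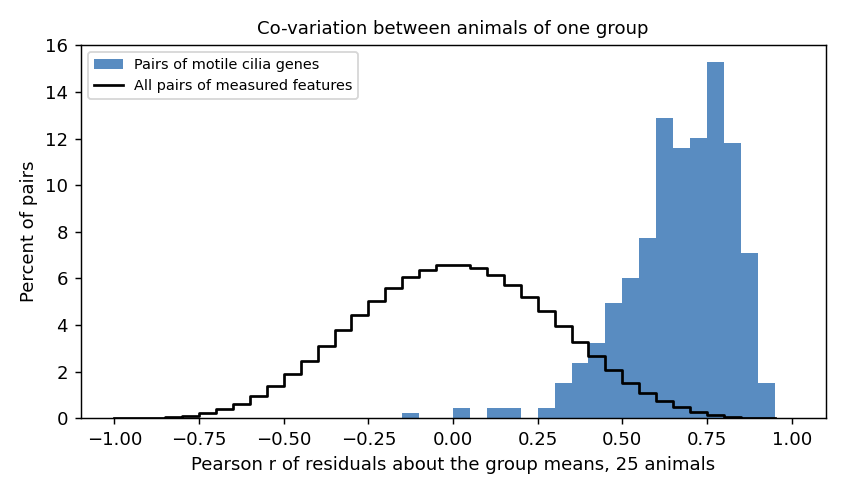
Distribution of Pearson correlations of residuals about the group means over 25 animals (x axis) as percent of pairs (y axis), for the 465 pairs of members (bars) and all pairs of measured features (line). The bars centre on 0.69 and the line on 0.01.

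Rsph1 and 1110017D15Rik followed the others most closely, each with r = 0.95 against the mean of the other members, and Tekt1 had 0.93. Iqcg at 0.51, Tppp3 at 0.57 and Rfx3 at 0.62 followed least, and Sec14l3 had 0.64. Without the farthest animals from the median, NM 401 high 2 and control 4, these values were 0.93, 0.92 and 0.90 for Rsph1, 1110017D15Rik and Tekt1, and 0.47, 0.40 and 0.57 for Iqcg, Tppp3 and Rfx3. Sec14l3 then had 0.56. Tekt2, which fell with NM 401 high as Tppp3 and Sec14l3 did, had 0.72 over all animals and 0.73 without those 2.

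**Figure D5:**
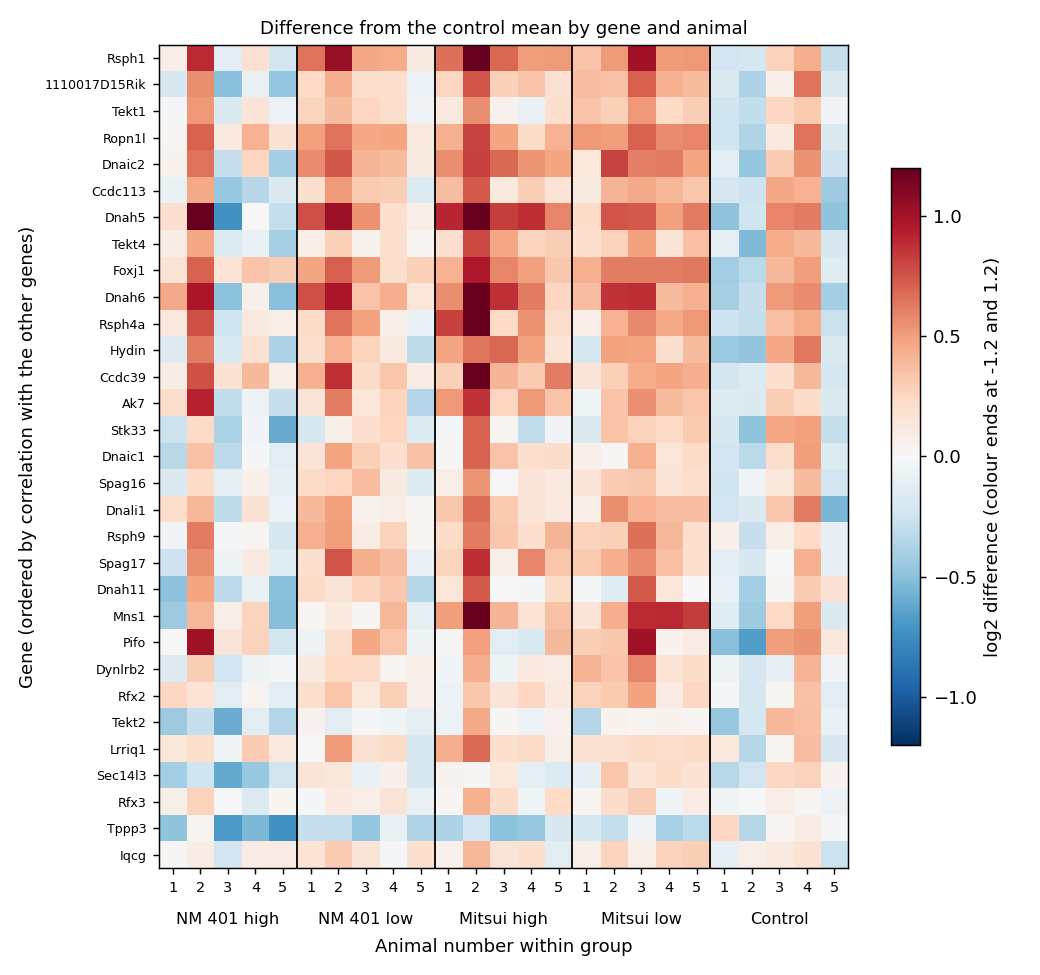
Difference of each member (rows, ordered by correlation with the other members) from the control mean in each animal (columns), in log2 units by colour. NM 401 high animal 2, Mitsui high animal 2 and control 4 are raised over most rows, and Tppp3 is the row that is mostly lowered in exposed animals.

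Among features with a gene symbol outside the list, the 10 most like the members, by correlation of residuals with the member mean over the 25 animals, were Drc3, 1700001L19Rik, Lrrc46, Kif9, 1700013F07Rik, Cfap161, Morn5, Nek5, Dzank1 and Cryaa, with r of 0.94 or 0.95. The median over all tested features was 0.02, and 291 reached 0.8, with members and features without a symbol among them. Of these 10, Nek5 rose by 0.82 (limma adjusted p = 0.00579) in Mitsui high and by 0.66 (limma adjusted p = 0.0278) in Mitsui low lungs. Kif9 rose by 0.52 (limma adjusted p = 0.0265) and 0.48 (limma adjusted p = 0.0438) in the same order, and Morn5 by 0.58 (limma adjusted p = 0.0482) and 0.59 (limma adjusted p = 0.0484). 1700013F07Rik rose by 0.62 in Mitsui high (limma adjusted p = 0.0288). In the 2 NM 401 groups none of the 10 passed. Under median centring these calls were lost, and with the Feature Extraction ratios those of Nek5 in both groups and of Kif9 and Morn5 in Mitsui high. Nek5 lost its Mitsui low call in 5 of the 25 fits without 1 animal, Kif9 its calls in 4 and 8, Morn5 in 17 and 17 and 1700013F07Rik in 4.

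Other genes of the cilium were read from further lists, and every call of a gene named from these lists on axoneme, assembly, transport and multiciliation was lost under median centring. The counts of every further list stand beside the shares over all features. These were 18.4% higher and 16.4% lower in NM 401 high, and 8.95% and 7.98% in NM 401 low. For Mitsui high they were 12.7% and 11.1%, and for Mitsui low 10.6% and 10.4%. Of 70 tested further axoneme genes, 5 were higher and 2 lower in NM 401 high lungs, 10 and 1 in NM 401 low, 26 and 1 in Mitsui high, and 20 and 2 in Mitsui low. Their medians were 0.11, 0.26, 0.42 and 0.36 in that order, and their median correlation with the members was 0.84. Dnah2, an inner arm dynein heavy chain, averaged 3.62 ± 0.42 in NM 401 high, 3.98 ± 0.39 in NM 401 low, 4.10 ± 0.52 in Mitsui high and 3.90 ± 0.25 in Mitsui low lungs, against 2.83 ± 0.61 in control lungs (SD, n = 5). It was called in all 4 exposures, with changes of 0.79, 1.16, 1.27 and 1.07, of which all but that of NM 401 low were lost with the Feature Extraction ratios.

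Cfap73, a coiled-coil protein of the inner arm region, went the other way and was called in all 4 exposures, with log2 changes of -0.76 in NM 401 high (SE 0.12, limma adjusted p = 1.98e-05), -0.61 in NM 401 low, -0.72 in Mitsui high and -0.71 in Mitsui low. With the Feature Extraction ratios Cfap73 was called in Mitsui high alone. Cfap43, Cfap65 and Cfap69, proteins of cilia and sperm flagella, rose in all 4 exposures. In the order NM 401 high, NM 401 low, Mitsui high and Mitsui low, Cfap43 rose by 0.55, 0.74, 0.94 and 0.60, Cfap65 by 0.47, 0.84, 1.08 and 0.71, and Cfap69 by 0.56, 0.70, 0.77 and 0.70. Cfap65 lost all 4 calls with the Feature Extraction ratios, and Cfap43 that of NM 401 high. In NM 401 high Cfap65 also lost its call with the authors' deposited values, without a filter on dim probes and with slide as a block. The same call was lost in 7 of the 25 fits without 1 animal. Cfap69 lost its NM 401 high call as the mean of its kept probes. Cfap43 lost its calls in NM 401 high and Mitsui low in 5 of the 25 fits each. Wdr78, a dynein intermediate chain of the inner arm, rose by 1.09 in NM 401 low and 1.18 in Mitsui low.

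Dynein arms are assembled in the cytoplasm and docked on the doublets. Of 19 tested assembly and docking genes, 2 rose in NM 401 high, 2 in NM 401 low, 8 in Mitsui high and 5 in Mitsui low lungs, and 0 fell. In NM 401 high that was a smaller share than the 18.4% of all features that rose. Dnaaf3, an assembly factor, rose in each, with 1.32 ± 0.33 in NM 401 high, 1.34 ± 0.16 in NM 401 low, 1.46 ± 0.31 in Mitsui high and 1.46 ± 0.18 in Mitsui low lungs, against 0.74 ± 0.30 in control lungs (SD, n = 5). Ccdc151, of the docking complex, rose by 0.74 in Mitsui high and 0.67 in Mitsui low, and Tbcd, a tubulin folding cofactor, by 0.30 in NM 401 high. Ttc12 rose by 0.33 in NM 401 low, 0.47 in Mitsui high and 0.36 in Mitsui low, and lost the first of these calls in 20 of the 25 fits without 1 animal.

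Intraflagellar transport genes, which all cilia use, gave 2 higher and 5 lower of 38 in NM 401 high, 2 and 0 in NM 401 low, 9 and 1 in Mitsui high and 3 and 0 in Mitsui low. In NM 401 high these were smaller shares than the 18.4% higher and 16.4% lower among all features. Kifap3, a subunit of the transport kinesin, fell by 0.45 on the log2 scale in NM 401 high (limma adjusted p = 0.000205) and by 0.28 in Mitsui high. Ift43 and Bbs9 fell by 0.36 and 0.32 on the log2 scale in NM 401 high, where Dync2li1, of the transport dynein, rose by 0.43. Ift81 rose by 0.35 in NM 401 low, 0.43 in Mitsui high and 0.46 in Mitsui low. Ift46 rose by 0.23, 0.36, 0.41 and 0.35 in NM 401 high, NM 401 low, Mitsui high and Mitsui low, all of them lost as the mean of its kept probes. Its call in NM 401 high was also lost in 20 of the 25 fits without 1 animal and with slide or replicate as a block. The same call was lost with the authors' deposited values, with the Feature Extraction ratios, without a filter on dim probes and with the first or second array alone.

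The multiciliation programme, which precedes Foxj1's targets and multiplies the centrioles, had 15 tested genes. Of these, 4 rose and 1 fell in NM 401 high lungs, and 5 rose and 0 fell in each of the other exposures. Deup1, which builds the deuterosome, averaged 2.86 ± 0.40 in NM 401 high, 2.94 ± 0.46 in NM 401 low, 2.80 ± 0.55 in Mitsui high and 2.92 ± 0.54 in Mitsui low lungs, against 1.96 ± 0.40 in control lungs (SD, n = 5). It was called in all 4 exposures, with a change of 0.91 in NM 401 high (limma adjusted p = 0.0128). As the mean of its kept probes Deup1 changed by 0.45, 0.57, 0.41 and 0.51 in NM 401 high, NM 401 low, Mitsui high and Mitsui low, with the call in Mitsui high lost, and with the Feature Extraction ratios it was called in NM 401 high alone.

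Foxn4, a transcription factor of multiciliated precursors, averaged 1.44 ± 0.27 in NM 401 high, 1.70 ± 0.47 in NM 401 low, 1.63 ± 0.26 in Mitsui high and 1.78 ± 0.34 in Mitsui low lungs, against 0.69 ± 0.22 in control lungs (SD, n = 5), and was called in all 4. Every exposed animal had more Foxn4 than the highest control, at 0.92 or above against 0.91 at most. Ccdc78, a deuterosome protein, rose by 0.65, 1.11, 1.15 and 0.72 in NM 401 high, NM 401 low, Mitsui high and Mitsui low, calls that were lost with the Feature Extraction ratios. Cep63, a centriole protein, fell by 0.46 on the log2 scale in NM 401 high. In NM 401 high lungs Deup1, Foxn4 and Ccdc78 were called higher while 0 of the 31 members rose, but they were named for their large changes. The median change over the 15 tested multiciliation genes was 0.07 in NM 401 high, 0.12 in NM 401 low, 0.08 in Mitsui high and 0.14 in Mitsui low. A difference between this list and the members was not tested.

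Markers of neighbouring airway cells moved as well, and their part in the member results was not tested. Of 14 tested club cell markers, 7 fell and 1 rose in NM 401 high lungs, with a median of -0.36. The median of this list by animal lay between -0.63 and 0.06 in NM 401 high, and between -0.19 and 0.33 in controls. Gsta3 fell by 1.56 in NM 401 high, 1.16 in Mitsui high and 0.97 in Mitsui low, on the log2 scale, and Sult1d1 fell by 1.17 in NM 401 high, 0.73 in NM 401 low and 1.08 in Mitsui low. The call of Sult1d1 in NM 401 low was lost in 17 of the 25 fits without 1 animal and with the authors' deposited values. It was also lost without background subtraction, without a filter on dim probes, with eBayes set to trend and robust and with the second array alone. Pon1 and Aldh1a1 fell by 1.15 and 1.02 on the log2 scale in NM 401 high, and Chad rose by 0.72 in Mitsui high. Under median centring the one call kept among these was that of Sult1d1 in NM 401 high. Scgb1a1 averaged 7.17 ± 0.55 in NM 401 high, against 7.55 ± 0.25 in control lungs (SD, n = 5). In NM 401 low lungs 0 club markers rose and 1 fell, in Mitsui high 2 rose and 1 fell, and in Mitsui low 1 rose and 2 fell. The club markers had a median correlation with the members of 0.61.

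Goblet cell markers rose in 14, 9, 11 and 11 of 15 in NM 401 high, NM 401 low, Mitsui high and Mitsui low lungs, and 0 fell. Their median by animal lay between 0.63 and 2.76 in exposed animals and between -0.13 and 0.13 in controls. Muc5b, a gel-forming mucin, averaged 5.12 ± 0.27 in NM 401 high, 4.67 ± 0.55 in NM 401 low, 5.04 ± 0.20 in Mitsui high and 4.98 ± 0.27 in Mitsui low lungs, against 1.51 ± 0.64 in control lungs (SD, n = 5). Clca1, a secreted goblet cell protein, was called higher in all 4 exposures and Gp2 in all but NM 401 low; each exposed animal had a Cy5 signal well above background for both genes and 0 of 5 controls did, so no fold is given. Slc26a4, an anion exchanger, rose by 3.22 in NM 401 high. Under median centring the calls of Gp2 in Mitsui high and Mitsui low were lost.

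Of 11 basal cell markers, 7 rose and 2 fell in NM 401 high, 0 and 0 in NM 401 low, 2 and 0 in Mitsui high, and 0 and 2 in Mitsui low. Krt5, the basal keratin, averaged 2.10 ± 0.35 in NM 401 high and 1.64 ± 0.44 in Mitsui high lungs, against -0.01 ± 0.14 in control lungs (SD, n = 5). Aqp3 rose by 2.02 in NM 401 high and 1.18 in Mitsui high, and Krt14 by 1.72 in NM 401 high. Krt17 was called higher in NM 401 high and was well above background in 0 of 5 controls. Col17a1 and Snai2 fell by 0.51 and 0.49 on the log2 scale in Mitsui low. They were also the 2 that fell in NM 401 high, with means of 0.45 and -1.67, against 0.87 and -1.2 in control lungs. Col17a1 lost its call in 19 of the 25 fits without 1 animal in NM 401 high and 4 in Mitsui low, and Snai2 in 4 and 7. Under median centring all calls of Col17a1 and Snai2 were lost, and so were those of Krt5 and Aqp3 in Mitsui high.

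General airway epithelium markers gave 5 higher and 2 lower of 19 in NM 401 high, 3 and 1 in NM 401 low, 4 and 0 in Mitsui high, and 4 and 0 in Mitsui low. Dclk1 rose by 0.87, Elf3 by 0.72, Krt8 by 0.47 and Cldn7 by 0.36 in NM 401 high. The alveolar list of 15 gave 5 and 6, 4 and 4, 5 and 5, and 6 and 5 in that order. Cav1 and Clic5, of flat alveolar cells, fell by 1.1 and 0.89 on the log2 scale in NM 401 high, and Lamp3 and Napsa, of surfactant-producing cells, rose by 0.86 and 0.73. Under median centring the NM 401 high calls of Cav1, Clic5, Lamp3, Napsa, Krt8 and Cldn7 were lost.

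Macrophage markers gave 12 higher and 3 lower of 17 in NM 401 high, 10 and 0 in NM 401 low, 9 and 2 in Mitsui high, and 10 and 2 in Mitsui low, with a median correlation with the members of -0.05. Gpnmb rose by 5.05, Spp1 by 4.74, Trem2 by 4.65 and Mmp12 by 3.81 in NM 401 high. Cardiac muscle markers, read because whole-lung pieces can hold pulmonary vein muscle, had medians by animal from -1.55 to 1.13 in exposed animals and from -1.37 to 1.04 in controls. Of 11 tested, Actc1 and Myh7 fell by 0.42 and 0.37 on the log2 scale in NM 401 high and 0 passed elsewhere. The median correlation of the 11 with the members was -0.37. Actc1 lost its call in 16 of the 25 fits without 1 animal, with the authors' deposited values and without background subtraction. It was also lost without a filter on dim probes, with the replicate block, with eBayes set to trend and robust and with the second array alone. Under median centring both calls were lost.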

How the data were processed

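Per the labels' protocols, lung RNA was labelled with Cy5 and universal mouse reference RNA with Cy3. The deposited scanner intensity files of Agilent Feature Extraction were the start, one per array. The authors' deposited table of log2 values, whose normalisation is not given in the sources used here, served as an alternative, as did the deposited log10 ratios of Feature Extraction. Median signals were background-corrected (normexp, offset 50) and loess-normalised within arrays, with control spots at weight 0. Outlier spots (0.461%) were left out, and spots of a probe averaged. Of 55681 probes, 30466 were kept, each well above background in Cy5 in at least 4 animals of a group. Accessions were matched to RefSeq symbols (GRCm38.p6), and 27235 probes matched. The brightest kept probe stood for a gene. limma 3.58.1 (R 4.3.3) fitted 1 mean per group, with 20 residual degrees of freedom and a prior of 3.76, and p-values were Benjamini-Hochberg adjusted over all features. The test was checked on simulated data. The number of arrays limits the precision. Nothing in the labels says more than that samples are separate animals. For the slide block, only the first array of the animal on both entered. Members, lists and tests were chosen with earlier results of these data known. All members are named, with values by animal in the called groups and controls for those called, and in every group for Foxj1, Rfx2 and Rfx3. From each other list up to 4 called genes were named for NM 401 high and up to 2 for each other exposure, with the largest absolute change; Scgb1a1, and the other exposures given for some of these genes, were added after their values were seen. The 74 features with a missing value stayed out of the pairwise correlations.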

Additional observations from a re-analysis of the deposited data

Results flagged for a closer look

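In 160 sets of 5 animals (the 31 members and their median in each of 5 groups), the animal at one end was tested for its distance from the others, and 14 stood apart. Chance gives about 1 in 20 for a single set. The members vary together, so 1 animal can stand apart in several sets, and the 14 cannot be set against chance. Mitsui high animal 2 was the highest of its group in Rsph1 at 3.30, Tekt2 at 1.59, 1110017D15Rik at 5.61, Mns1 at 1.21 and in the member median at 0.71. Mitsui low animal 3 was the highest in Rsph1 at 3.08 and in 1110017D15Rik at 5.57. Mitsui low animal 1 was the lowest in Foxj1 at 3.57, Tekt2 at 0.79 and Stk33 at 3.53. In NM 401 high lungs animal 2 was the highest in Rsph9 at 3.56, and animal 3 the lowest in Iqcg at -0.12. NM 401 low animal 5 was the lowest in Dnah11 at 2.12. Control 4 was the highest in Dynlrb2 at 5.69.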

How the results depend on the processing

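Under median centring of each array in place of loess, 0 members passed in any comparison, and the calls over all features fell as well, to 1065, 62, 121 and 74 in NM 401 high, NM 401 low, Mitsui high and Mitsui low against control. The median over all features then moved to 0.17, -0.11, -0.13 and -0.14, and the member median beside it was 0.19, 0.11, 0.16 and 0.19. In NM 401 high against Mitsui high these were 0.33 and -0.03, and Sec14l3 in NM 401 high against NM 401 low turned to 0.03. The median correlation between members was 0.87 under this setting and 0.37 with the ratios of Feature Extraction. Those ratios gave 3 calls in Mitsui high, 4 in Mitsui low and 0 in NM 401 high against low. The authors' deposited values gave 3 calls in NM 401 low, and no background subtraction gave 5. No filter on dim probes gave 4 in Mitsui low and 0 in NM 401 high against low. Keeping only probes well above background in all animals gave 2 in NM 401 low, and eBayes with trend and robust gave 1 there and 0 in NM 401 high against low. Slide as a block gave 2 in NM 401 low and 1 in NM 401 high against Mitsui high. Without single animals the counts ran from 3 to 17 in Mitsui high, 2 to 13 in Mitsui low, 0 to 6 in NM 401 low, 2 to 4 in NM 401 high, 0 to 7 in NM 401 high against Mitsui high and 0 to 2 in NM 401 high against low. The causes of these shifts were not tested. For most of these settings no share of all features called stands beside the count. A loss among the members is there not told apart from a general loss of calls. Replicate numbers do not pair the animals: 12 of 50 same-numbered pairs correlated over 0.1, with a median of 0.00, against -0.01 for 200 pairs of different numbers. The replicate block gave 2 calls in NM 401 low and 0 in NM 401 high against low, and moved no other count by over 1.5 times. Background correction on mean signals was not run, since no mean spot signal was used here. Where the Cy3 reference is near background, the ratio's precision is limited.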
